A study of Mus musculus with 6 samples.

Results

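Ba/F3 is a mouse pro-B cell line that needs interleukin-3 to grow, and the cytokine genes of such a line are the ones whose products it could feed back to itself or to its neighbours. The 10 genes described here are Il3, Csf2, Il4, Il13, Il6, Osm, Il10, Il16, Tnf and Lta. They were chosen by symbol, as genes that encode secreted cytokines, from the 18193 genes that the arrays measured, and they were read by 13 of 45037 probe sets. Il16 had 4 probe sets and each of the other 9 genes had 1. Induced cells carried a retroviral SPAG9-JAK2 fusion, which joins the kinase JAK2 to the scaffold protein SPAG9, under a doxycycline-controlled promoter (Retro-X Tet-On Advanced) and received doxycycline at 500 ng/ml (3 arrays). Uninduced cells carried the same construct and received no doxycycline (3 arrays). RNA was taken after 48 hours. No array held cells that received doxycycline without carrying the fusion, and the labels also call the uninduced cells mock. The sources used here name neither the clonality of the line nor any interleukin-3 in the culture.

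Cytokines of these families signal over short distances. IL-3, GM-CSF (the product of Csf2), IL-4, IL-13, IL-6, oncostatin M (Osm) and IL-10 bind receptors without kinase activity of their own, which rely on JAK kinases and pass the signal to STAT transcription factors. The products of Tnf and Lta bind receptors of the TNF receptor family and signal through NF-kB, and IL-16 is a chemoattractant cut from a larger precursor. In lymphoid and myeloid cells most of these genes are silent at rest and are transcribed after a stimulus, with Osm known as a target of STAT5 and Il6 as a target of NF-kB. In the mouse Il4 and Il13 lie close together on chromosome 11, Csf2 and Il3 form another pair on that chromosome, and Tnf and Lta are neighbours on chromosome 17.

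Sequences before the start of 4 of these genes are shown. Il6 was picked for its strong signal and Il4 for being higher on every induced array. Il16 was the member called, and Il3 is the cytokine that the line depends on. The sequences are the 250 bases upstream of a RefSeq start in GRCm38.p6, written 5′ to 3′ along the gene. Capitals mark matches, on either strand, to TTCNNNGAA (a STAT site), TTC and GAA with 4 bases between them (a spacing preferred by STAT6), GGGA and TTTCC with 1 base between them (NF-kB), TGANTCA (AP-1), TGACGTCA (CRE), TTGNGCAAT (C/EBP) and TGGAAA (NFAT).
Il6, chr5:30012864-30013113, plus strand: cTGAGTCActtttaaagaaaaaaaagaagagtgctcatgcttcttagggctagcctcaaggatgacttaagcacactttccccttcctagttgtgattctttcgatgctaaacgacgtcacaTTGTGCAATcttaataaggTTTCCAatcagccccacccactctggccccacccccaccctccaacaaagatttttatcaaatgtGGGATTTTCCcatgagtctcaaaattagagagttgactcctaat
Il4, chr11:53618666-53618915, minus strand: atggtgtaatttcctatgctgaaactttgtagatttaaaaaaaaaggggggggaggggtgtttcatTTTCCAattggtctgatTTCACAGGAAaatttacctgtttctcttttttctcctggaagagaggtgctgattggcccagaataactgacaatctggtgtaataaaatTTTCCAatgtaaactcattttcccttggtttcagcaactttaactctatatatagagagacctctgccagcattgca
Il16, chr7:83655496-83655745, minus strand: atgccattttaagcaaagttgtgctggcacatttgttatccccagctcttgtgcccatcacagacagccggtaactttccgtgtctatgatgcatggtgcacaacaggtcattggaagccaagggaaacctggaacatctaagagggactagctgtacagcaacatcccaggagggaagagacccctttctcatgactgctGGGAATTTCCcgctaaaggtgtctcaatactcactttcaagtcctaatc
Il3, chr11:54267280-54267529, minus strand: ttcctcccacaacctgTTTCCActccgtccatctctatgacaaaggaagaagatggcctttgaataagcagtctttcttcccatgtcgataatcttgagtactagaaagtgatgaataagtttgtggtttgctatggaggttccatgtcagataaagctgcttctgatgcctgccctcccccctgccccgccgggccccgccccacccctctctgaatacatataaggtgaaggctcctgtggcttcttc
A RefSeq window was at hand for 8 of the 10 genes, 11 windows in all, of which Il16 had 3 and Il4 had 2; the Il16 window printed is the one nearest to the 3′ end of the gene, and the Il4 window is the one that adjoins the annotated gene. The Il6 window held the NF-kB letters 44 to 35 bases before the start, the C/EBP letters 128 to 120 bases before it, and 1 match each for AP-1 and NFAT. The NF-kB letters occurred in 0.356% of 32851 such windows of all genes, and the C/EBP letters in 0.539%. The Il16 window held the NF-kB letters 49 to 40 bases before its start. Of the Il16 windows not printed, that at chr7:83735540-83735789 held the AP-1 and NFAT letters. That at chr7:83732399-83732648 held no match. In the Il4 window 1 match to the STAT6 spacing (5.85% of all windows) and 2 to the NFAT letters (18.6% of all windows) were found, and in the Il3 window 1 match to the NFAT letters. The STAT letters TTCNNNGAA (7.02% of all windows) occurred in none of the 4 windows printed. Among the 11 windows of the members they occurred only in that of Lta, at 2 places. These matches describe letters in a short window and say nothing of whether a factor binds there.

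Levels are Affymetrix signals as deposited, whose trimmed mean was 500.0 on every array. Differences are of log2(signal + 16), induced minus uninduced, a scale on which changes at low signal come out too small. Since no detection calls came with the values, a group was called dim where its mean lay below 6.32 on that scale (a signal of 63.8), the 90th percentile of 36 measured genes of liver and brain. That list held some genes with clear signal, with Mbp the highest at 9.91, so the level is a cautious one. By it 6 of the 10 cytokine genes were dim in both groups, 1 was dim in uninduced cells alone, and 3 were above it in both. Uninduced replicate 1 stood apart from its group: over all genes it correlated at 0.963 and 0.964 with uninduced replicates 2 and 3, which correlated at 0.983 with each other, and at 0.971 with induced replicate 1. It also had the highest median signal (63.8, against 46.3 to 55.2 on the other 5 arrays). Induced replicate 1 stood apart from its group too, to a smaller extent. It correlated at 0.972 and 0.974 with induced replicates 2 and 3, which correlated at 0.982 with each other, and its median signal was 55.2. Calls and directions that change without uninduced replicate 1 are given beside the result or in the closing section.

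**Figure D1:**
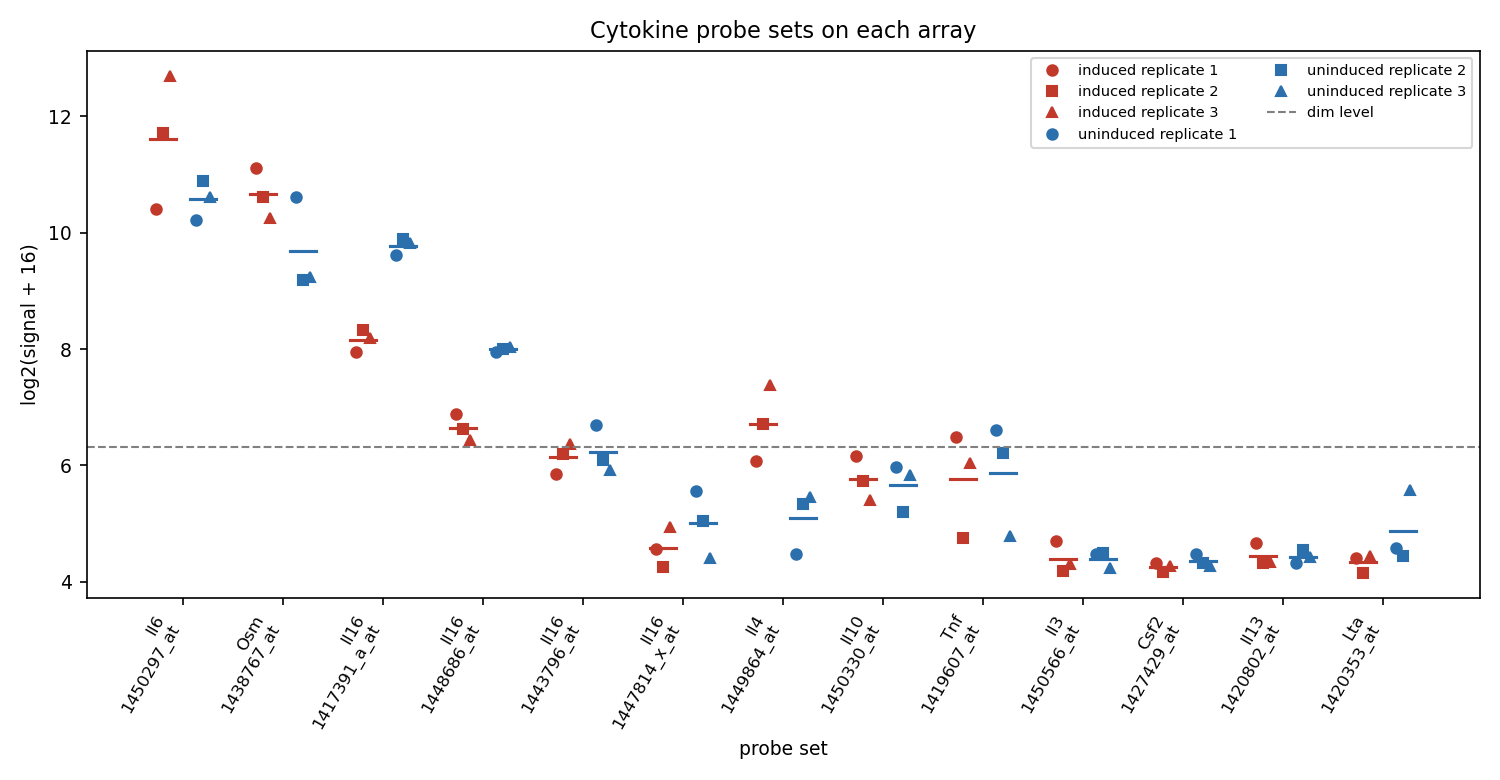
Each point is 1 array's log2(signal + 16) for 1 probe set of the 10 cytokine genes (vertical axis), with induced arrays in red and uninduced arrays in blue, bars at the group means and a dashed line at the dim level of 6.32. Il6, Osm and 2 Il16 probe sets lie above the line in both groups and Il4 lies above it on average in induced cells alone. Heights of different probe sets cannot be set against each other.

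Of the 10 cytokine genes 1 passed the test and it was lower: Il16 fell in induced cells by 1.63 ± 0.18 on the log2 scale (SE, limma over 18193 genes, adjusted p = 0.0401), a 3.09-fold lower level. Fewer cells with the RNA and less RNA per cell cannot be told apart in such bulk samples. In the same fit 0.187% of all genes were called, 0.115% higher and 0.0715% lower (21 and 13 genes). The lean towards higher calls did not hold across settings: median centring of the arrays gave 24 higher and 6 lower, but without uninduced replicate 1 there were 586 higher and 867 lower. No member was called higher. At an unadjusted p under 0.05 in limma there were 2 members, Il16 and Il4, where 17.4% of all genes reached it. The median log2 difference was 0.01 over the members, 5 of them positive and 5 negative, and -0.06 over all genes. Il16 and Il4 were also the 2 members whose groups did not overlap, which held for 24.1% of all genes.

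Il16 encodes a precursor whose carboxy-terminal part is released as a chemoattractant for CD4+ cells (chr7:83642819-83746028, GRCm38.p6). Its brightest probe set (1417391_a_at) read 230, 305 and 275 in induced cells, against 771, 937 and 884 in uninduced cells. Every induced array lay below every uninduced one, and both groups were tight (270 ± 37.6 in induced and 864 ± 84.5 in uninduced cells, SD, n = 3 each). A probe set designed on the same transcript sequence (1448686_at) read 101, 83.0 and 70.5 in induced cells, against 230, 240 and 248 in uninduced cells, again without overlap. It differed by -1.35 ± 0.19. The 2 other Il16 probe sets were dim in both groups and overlapped: 1443796_at read 41.8, 57.1 and 66.8 in induced cells, against 87.4, 52.0 and 44.9 in uninduced cells, and 1447814_x_at read 7.65, 3.12 and 14.6 in induced cells, against 31.1, 17.02 and 5.204 in uninduced cells. When all 45037 probe sets were tested, the adjusted p of the 2 bright Il16 probe sets was 0.0700 and 0.104 in limma, and 0 of the 13 member probe sets passed (3 at an unadjusted p under 0.05, which 14.1% of all probe sets reached). In that fit 0.0377% of all probe sets were called, 0.02% higher and 0.0178% lower. Without uninduced replicate 1 both bright Il16 probe sets passed (adjusted p = 0.0283 and 0.0400 in limma), and the probe sets called numbered 1374, against 17 with all arrays. Groups did not overlap for 3 member probe sets, the 2 of Il16 and that of Il4, and for 20.6% of all probe sets, 9.35% with induced arrays above and 11.2% with induced arrays below. The gene's call was lost when any 1 array except uninduced replicate 1 was left out (adjusted p from 0.0960 to 0.249 in limma, with differences from -1.71 to -1.52). It was also lost with a pseudocount of 1 (adjusted p = 0.0965), median centring (0.0895), quantile normalization (0.0526), the probe set that varied most for each gene (0.0744) and the mean of its 4 probe sets (-0.87, adjusted p = 0.110). Without uninduced replicate 1 the difference was -1.70 (adjusted p = 0.0166 in limma), in a fit that called 1453 of 18193 genes.

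Osm encodes oncostatin M, a cytokine of the IL-6 family that shares the receptor subunit gp130 (chr11:4236785-4241026). Its probe set read 2186, 1542 and 1210 in induced cells, against 1547, 568 and 591 in uninduced cells. The groups overlapped, because uninduced replicate 1 read slightly above induced replicate 2 and well above induced replicate 3. The difference was 0.97 ± 0.44 (adjusted p = 0.314 in limma, 95% interval from -0.08 to 2.03). Without uninduced replicate 1 it was 1.44 ± 0.28 and passed (adjusted p = 0.0469 in limma). That fit called 1453 of all 18193 genes, against 34 with all arrays. Leaving out both arrays numbered 1, a choice made after seeing the data, gave 1.21 ± 0.17 (adjusted p = 0.0462 in limma). There 1477 genes were called. In the fit over all probe sets the Osm probe set passed in neither setting. Its adjusted p was 0.0656 without uninduced replicate 1 and 0.0714 without both arrays numbered 1 (limma). With every array kept and those numbered 1 treated as a batch, also chosen after seeing the data, the difference was 0.97 ± 0.21. This did not pass (adjusted p = 0.104 in limma), and no other alternative gave a call for Osm.

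Il6 encodes interleukin-6, the founding member of that family and a growth factor of B-lineage and plasma cells (chr5:30013114-30019975). Its probe set read 1343, 3341 and 6633 in induced cells, against 1169, 1889 and 1557 in uninduced cells. Signal was thus strong on all 6 arrays, and induced replicate 1 lay within the range of the uninduced arrays while the other two induced arrays lay above it. The highest induced array read 4.94 times the lowest, against 1.62 times among uninduced arrays. The SD of the induced arrays, 1.15 on the log2 scale, was exceeded by 0.671% of the 9097 genes at or above the median level, whose median SD was 0.17 in that group. The difference was 1.03 ± 0.56 (adjusted p = 0.399 in limma, 95% interval from -0.33 to 2.39). It was 0.49 without induced replicate 3 and 1.63 without induced replicate 1, neither past the threshold (adjusted p of 0.678 and 0.169 in limma).

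Il4 encodes interleukin-4, which signals through STAT6 and drives the switch of B cells to IgE and IgG1. Its probe set read 51.1, 88.6 and 151 in induced cells, against 6.19, 24.6 and 27.7 in uninduced cells. All induced arrays lay above all uninduced ones, as they did for 10.7% of all genes. The difference was 1.63 ± 0.41 and did not pass (adjusted p = 0.147 in limma, 95% interval from 0.64 to 2.62). Uninduced cells were dim for this gene and induced replicate 1 lay below the dim level as well. The difference was 0.91 with a pseudocount of 64 and 2.36 with a pseudocount of 1. The adjusted p ranged from 0.0560 to 0.359 over all settings tried.

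**Figure D2:**
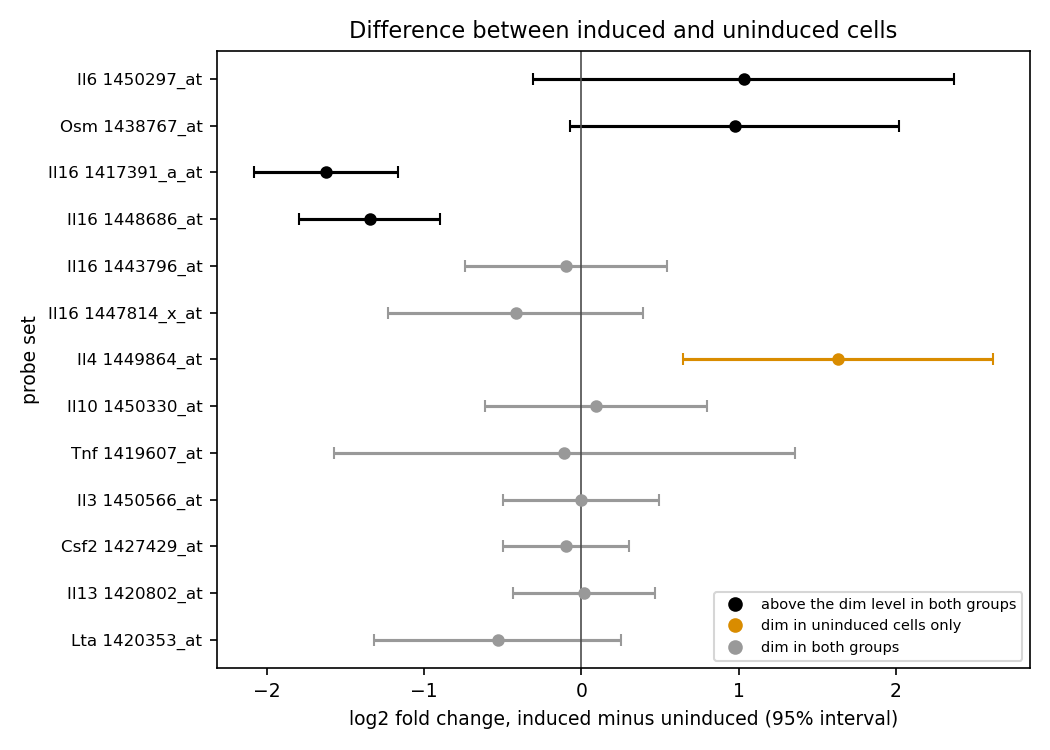
Points are log2 differences, induced minus uninduced, for the 13 probe sets (horizontal axis), with 95% intervals from the fit over all probe sets, and colour marks the groups in which a probe set was dim. The intervals of the 2 bright Il16 probe sets lie below 0 and that of Il4 above it; those of Il6, Osm and the probe sets dim in both groups include 0.

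Il3 encodes the growth factor on which Ba/F3 cells depend. Its probe set read 9.88, 2.22 and 3.78 in induced cells, against 6.23, 6.43 and 2.82 in uninduced cells. All 6 arrays lay far below the dim level and the groups overlapped. The difference was -0.003 ± 0.20 (adjusted p = 0.997 in limma, 95% interval from -0.47 to 0.47), and no fold is given for a gene that is dim in both groups. A signal in this range does not show that the RNA was absent, only that it was not told apart from that of silent genes. Csf2, the gene of GM-CSF, lies close to Il3 and its product uses the same signalling receptor chain. It read 4.06, 2.08 and 3.41 in induced cells, against 6.16, 4.07 and 3.41 in uninduced cells, all far below the dim level and overlapping.

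Il13 encodes interleukin-13, which shares a receptor chain with IL-4. Its gene lies near Il4, and it read 9.46, 4.01 and 4.16 in induced cells, against 3.99, 7.24 and 5.37 in uninduced cells. Its groups overlapped at a level far below the one called dim. Il10 encodes interleukin-10, which restrains inflammatory cytokine production (chr1:131019845-131024970). It read 55.3, 37.1 and 26.5 in induced cells, against 46.8, 20.9 and 41.2 in uninduced cells, nearer to the dim level and with overlap. The 95% interval of the difference was -0.40 to 0.43 for Il13 and -0.60 to 0.79 for Il10.

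Tnf encodes tumour necrosis factor and Lta encodes lymphotoxin alpha. Tnf read 74.1, 10.9 and 49.6 in induced cells, against 81.8, 58.1 and 11.4 in uninduced cells. Both groups held 1 array above the dim level and 1 array near a signal of 11, so its spread within groups (0.91 in induced and 0.96 in uninduced cells, SD on the log2 scale, n = 3 each) far exceeded the difference of -0.11, which was 0.26 without uninduced replicate 1. Lta read 5.14, 1.70 and 5.80 in induced cells, against 7.92, 5.66 and 31.8 in uninduced cells. Its highest array was uninduced replicate 3, and the others lay at or below 7.92. With the dim level set at 5.36, the median over those liver and brain genes, Il10 and Tnf counted as above it and 4 genes remained dim in both groups, namely Il3, Csf2, Il13 and Lta.

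The chromosomal neighbours of the clustered members were read beside them. Il3 lies at chr11:54265085-54267279, Csf2 at chr11:54247270-54249899, Il13 at chr11:53631323-53634702 and Il4 at chr11:53612460-53618665. Of 10 measured neighbours 1 was called, as were 0.187% of all genes. This was Irf1, a transcription factor of interferon responses, which rose by 2.28 ± 0.22 (adjusted p = 0.0396 in limma). It read 3935, 3990 and 2864 in induced cells, against 899, 621 and 673 in uninduced cells. Septin8, a cytoskeletal GTPase gene beyond Il4, stood at 0.99 ± 0.23 (adjusted p = 0.135 in limma). All its induced arrays lay above all uninduced ones, as they did for 10.7% of all genes. Rad50, a DNA repair gene between Il13 and Il5, stood at 0.14 ± 0.20, Kif3a, a kinesin gene next to Il4, at -0.14 ± 0.17 and the carnitine transporter gene Slc22a5 at -0.13 ± 0.14. The other 5 neighbours, Acsl6, P4ha2, Pdlim4, Slc22a4 and Il5, were dim in both groups. The median over the 10 was 0.09, against -0.06 over all genes.

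Tnf and Lta lie at chr17:35199367-35202007 and chr17:35203165-35205578. The third lymphotoxin-family gene of that cluster, Ltb, which encodes the membrane anchor of the lymphotoxin heterotrimer, gave a strong signal. It read 708, 711 and 497 in induced cells, against 1914, 3085 and 2902 in uninduced cells. The groups were far apart and the difference was -2.004 ± 0.26, but it did not pass over all genes (adjusted p = 0.0634 in limma). Without uninduced replicate 1 it was -2.22 and passed (adjusted p = 0.0158 in limma), in a fit that called 1453 of 18193 genes. Nfkbil1 at -0.72 ± 0.17 and Lst1 at -0.71 ± 0.18 did not pass. Both were also lower on every induced array, as were 13.4% of all genes. The RNA helicase gene Ddx39b stood at 0.22 ± 0.19 and Prrc2a at -0.24 ± 0.23. Atp6v1g2 and Aif1 were dim in both groups. In all 0 of the 7 measured neighbours were called in limma, with a median of -0.71. At an unadjusted p under 0.05 in limma there were 4, where 17.4% of all genes reached it.

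A list of 46 other cytokine genes, of which 37 were measured, places the members among their kind. Of the 37, 24 were dim in both groups and 0 were called in limma (8 at an unadjusted p under 0.05, 2 higher and 6 lower). That unadjusted p was reached by 17.4% of all genes. The median difference of the 37 was -0.09. Besides Ltb the lowest p-values among those with signal in at least 1 group were those of Tnfsf10, Il34 and Tnfsf14. Tnfsf10, the death ligand TRAIL, stood at 1.14 ± 0.33. It was dim in uninduced cells, so the size of that difference is uncertain. Il34, a ligand of the CSF-1 receptor, stood at -1.74 ± 0.53 and Tnfsf14, the ligand LIGHT, at -0.54 ± 0.17. Without uninduced replicate 1 there were 6 calls in limma, Tnfsf10 higher and Ltb, Il15, Csf1, Mif and Tnfsf9 lower. In that fit 1453 of all 18193 genes were called, 586 higher and 867 lower.

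**Figure D3:**
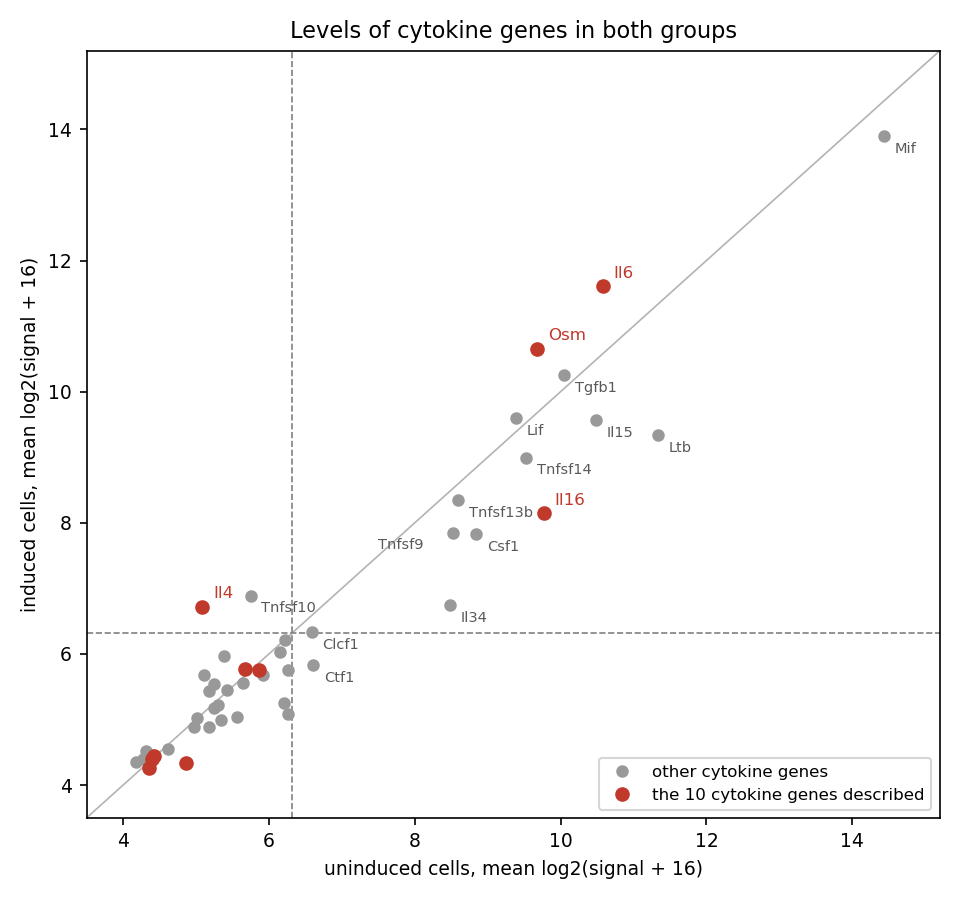
Each point is 1 cytokine gene, with its mean log2(signal + 16) in uninduced cells on the horizontal axis and in induced cells on the vertical axis; the diagonal marks equal levels and the dashed lines the dim level. Il6, Osm and Il4 lie above the diagonal and Il16 and Ltb below it, and most other cytokine genes sit in the dim corner at the lower left.

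Receptor genes of the 10 cytokines held no call. Of 20 listed genes 19 were measured and 9 were dim in both groups, with a median difference of -0.12 over the 19. In limma 0 were called, with all arrays and without uninduced replicate 1. An unadjusted p under 0.05 in limma was reached by 5, 1 higher and 4 lower, and by 17.4% of all genes. Il4ra, the chain that IL-4 and IL-13 share, stood at -0.88 ± 0.22 (adjusted p = 0.146 in limma), with induced arrays at 502, 578 and 378 and uninduced arrays at 1068, 855 and 786. Il3ra, the binding chain for IL-3, stood at -0.73 ± 0.21, and Csf2rb, the common signalling chain of IL-3 and GM-CSF, at 0.70 ± 0.28. The TNF receptor gene Tnfrsf1a stood at -0.53 ± 0.19. Il6st, which encodes gp130, and Osmr and Lifr were dim in both groups, whereas the IL-6 binding chain Il6ra averaged 6.49 in induced and 7.09 in uninduced cells, just above the dim level.

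The genes whose pattern over the 6 arrays was most like that of a member were taken from the 9097 genes at or above the median level, as a description. They were Clec4e, Cdkn2a and Susd6 for Il16 (Pearson r from 0.997 to 0.999), Uqcrb, Ndufs8 and Eif4enif1 for Osm (r from 0.998 to 0.999), Mpv17, Rnf19b and Crk for Il6 (r from 0.983 to 0.992), and Vkorc1l1, Abhd11 and Odf2l for Il4 (r from 0.990 to 0.995). The 6 points share arrays and the group difference itself.

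Markers of cell types that make these cytokines were read beside them. Of the pro-B markers 7 of 10 measured were dim in both groups (Cd79a, Ebf1, Vpreb1, Igll1, Rag1, Rag2 and Cd93). Cd79b and Ptprc were above the dim level in both groups. Pax5 averaged 5.79 in induced and 6.33 in uninduced cells, just above the dim level in uninduced cells alone. Its uninduced arrays read 124, 33.7 and 58.7. Most of the listed markers of the labelled cell type were thus not told apart from silent genes. T cell markers were dim in both groups for 3 of 6, with mean levels from 5.60 to 5.86 on induced and from 5.42 to 5.92 on uninduced arrays. Cd3g averaged 8.01 in induced and 7.14 in uninduced cells. Cd8a was above the dim level in induced cells alone and Cd3d in uninduced cells alone. For the mast cell and basophil markers, whose cells are a source of IL-4, IL-6 and IL-13, 7 of 10 were dim in both groups. Kit and Cpa3 were among these. Gata2 (12.7 in induced and 13.2 in uninduced cells) and Ms4a2 (7.21 and 6.94) were above the dim level in both groups. Cpa3 stood at 0.92 ± 0.24, higher on every induced array, and Cma1, dim in induced cells alone, at -3.36 ± 0.76, lower on every induced array. Mean levels of that list ran from 6.04 to 6.41 on induced and from 6.60 to 6.81 on uninduced arrays. Cma1 had the largest difference in the list. The macrophage markers, whose cells make Il6, Osm and Tnf, had mean levels from 5.70 to 6.28 on induced and from 6.21 to 7.36 on uninduced arrays, over 7 measured genes. Of these, 4 were lower on every induced array (Adgre1, Csf1r, Cd68 and the dim Marco), as were 13.4% of all genes, and 1 was higher on every induced array, the dim Mrc1 at 0.85 ± 0.34. None of these 4 lists had a call in limma. At an unadjusted p under 0.05 there was 1 pro-B and 1 T cell marker, both lower, and 1 mast cell marker in each direction. Of the macrophage markers 1 higher and 4 lower reached it, as did 17.4% of all genes. Without uninduced replicate 1 the fit called 867 of all 18193 genes lower. Among them were Cma1 of the mast cell markers and Adgre1 and Csf1r of the macrophage markers. The part of the cell type markers in the values of Il16 or of any other cytokine gene was not tested.

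**Figure D4:**
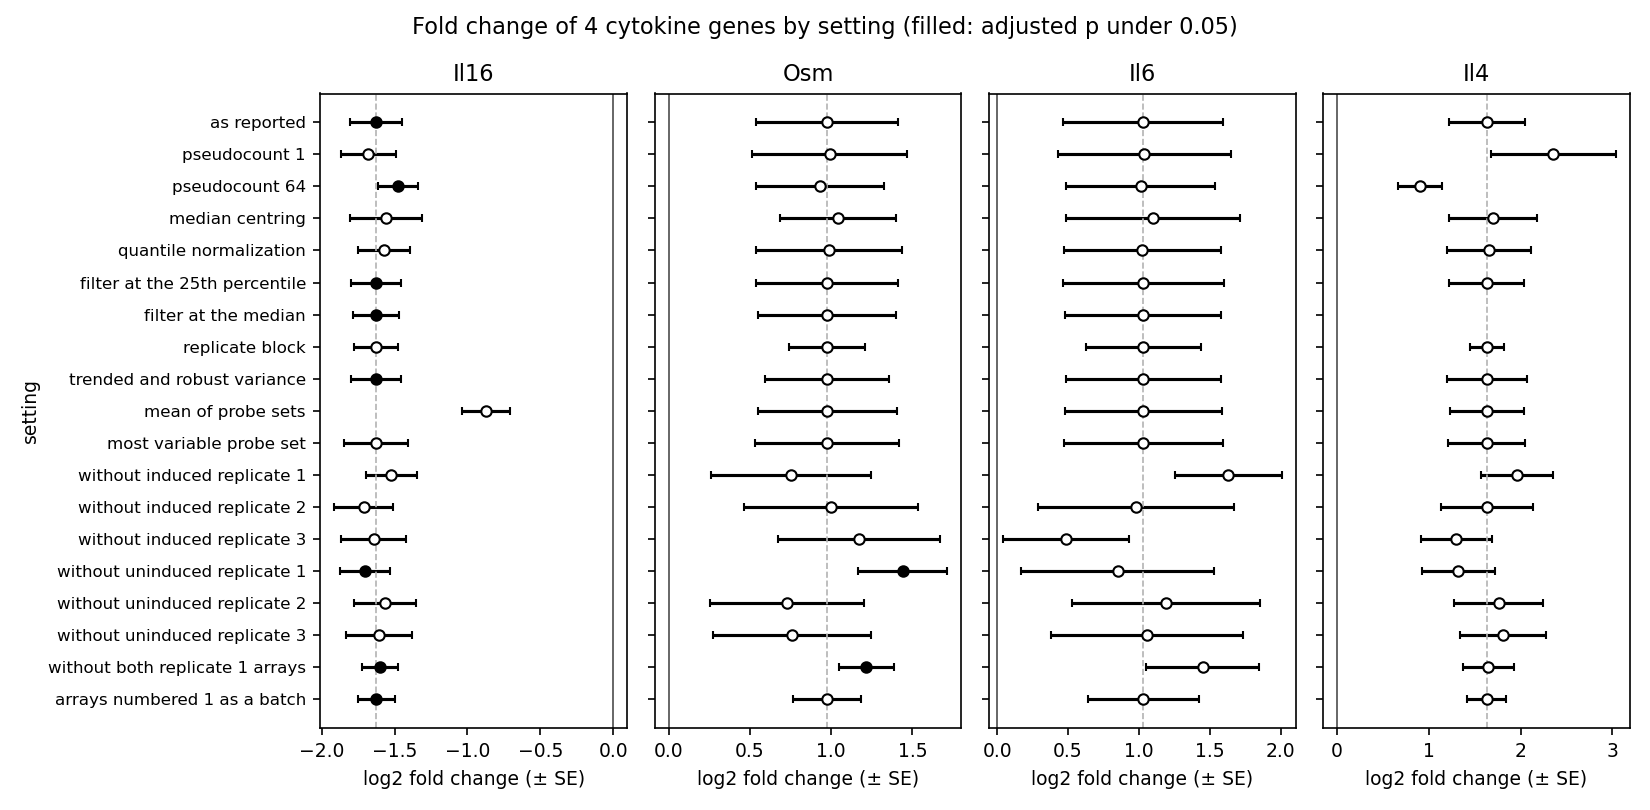
The log2 difference, induced minus uninduced, of Il16, Osm, Il6 and Il4 (horizontal axes, each with its own scale) is shown with its SE under each setting (vertical axis), and filled points have an adjusted p under 0.05. All 4 genes keep their direction in every setting shown; Il16 is filled as reported and in 7 other settings, Osm in the 2 without uninduced replicate 1, and Il6 and Il4 in none.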

How the data were processed

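RNA of 6 cultures was labelled with a 3′IVT kit and hybridised to Affymetrix arrays, per the labels' protocols. The deposited values are signal intensities on a linear scale, made by the authors with Affymetrix Expression Console 1.4.1, per the submitters' processing notes, and how probes were summarised is not stated in those notes. Groups and replicate numbers came from the sample titles. Cultures were seeded in triplicate and no separate experiments are named, so p-values measure the spread between these cultures, and 3 arrays a group limit the precision.

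From the intensities log2(signal + 16) was computed with no further normalization. After 64 control probe sets were left out, 45037 remained, of which the platform annotation gave 34945 exactly 1 gene symbol, 932 several and 9160 none. For each of 18193 genes the probe set with the highest mean stood in. Positions are from the RefSeq table of GRCm38.p6. Both levels were fitted with limma 3.58.1 in R 4.3.3 (lmFit and eBayes, two-sided, Benjamini-Hochberg over all features, threshold of 0.05). The procedure was also run on simulated data. There the planted changes were larger than that of Il16, in genes at or above the median level, with independent noise. No array was made to stand apart, so the simulation does not bear on calls that change when 1 array is left out. A permutation test over 3 against 3 arrays cannot go below 0.10 and was not used. Lists are described by counts and medians. The members and lists were chosen with earlier results of these data known. Named are all 10 members, up to 4 genes of each list with the smallest p among those with signal, all locus neighbours, and the 3 genes nearest in pattern to each member with signal; any other gene named was chosen after its values were seen. Alternatives were pseudocounts of 1 and 64, median centring, quantile normalization, 2 filters on dim genes, other probe set choices, a replicate block, another variance model, a threshold of 0.01 and leaving out each array; leaving out both arrays numbered 1 and treating them as a batch are additions made once the data had been seen. Plots used matplotlib 3.10.9.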

Additional observations from a re-analysis of the deposited data

How the results depend on the processing

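Of the 10 cytokine genes, Il4, Il6, Osm, Il16, Lta and Csf2 kept their direction under every alternative that could be run for them. Il4, Il6, Osm and Il16 ranged over 0.91 to 2.36, 0.49 to 1.63, 0.73 to 1.44 and -1.71 to -0.87. Lta and Csf2, dim in both groups, ranged over -1.37 to -0.18 and -0.41 to -0.03, and no size is read from these. The -0.18 of Lta was without uninduced replicate 3. The count of called member genes, 1 as reported, was 0 with a pseudocount of 1, median centring, quantile normalization, a threshold of 0.01, the mean of probe sets and the most variable probe set, and 2 without both arrays numbered 1, which also gave Osm; leaving out 1 array gave 0 to 2. The count of all genes called, 34 as reported, was 0 with a pseudocount of 1, 255 with 64, 342 with the filter at the median, 550 with trended and robust variance, 0 at a threshold of 0.01, 19 with the most variable probe set, 1477 without both arrays numbered 1, and 0 to 1453 without 1 array. Of the member probe sets 2, both of Il16, were called with a pseudocount of 64, the filter at the median and trended and robust variance, and 0 to 2 without 1 array. The cause of these changes was not tested.

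The replicate numbers did not settle a pairing, since deviations of same-numbered arrays correlated at 0.173, 0.078 and 0.084, although every array correlated best with its own number, a hint from the data and not from the design. Among all called genes higher ones outnumbered lower ones as reported (21 and 13), with median centring (24 and 6) and with quantile normalization (19 and 9). The same held with the filter at the 25th percentile (23 and 17), the mean of probe sets (23 and 21) and the most variable probe set (13 and 6). It also held without induced replicate 1 (10 and 2) and without induced replicate 3 (1 and 0). Lower ones outnumbered higher ones with a pseudocount of 64 (122 higher and 133 lower), the filter at the median (144 and 198), trended and robust variance (237 and 313), without uninduced replicate 1 (586 and 867), without both arrays numbered 1 (524 and 953) and with those arrays as a batch (6 and 19). With the replicate number as a block 0 genes and 0 members were called in limma (3269 genes at an unadjusted p under 0.05), and Il16 stood at -1.63 with an adjusted p of 0.198.

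Directions turned for genes that were dim in both groups. Il3 gave 0.0015 with a pseudocount of 64, 0.064 with median centring, 0.010 with quantile normalization and -0.15 to 0.10 without 1 array. Il13 gave -0.15 without both arrays numbered 1 and -0.10 to 0.076 without 1 array, Il10 -0.14 to 0.27 and Tnf -0.65 to 0.40 without 1 array, and the dim Il16 probe set 1443796_at gave 0.27 without both arrays numbered 1 and -0.25 to 0.13 without 1 array. A member below a filter gave no value under it. What the data cannot show is set by signal over background, since 6 of the 10 genes lay below the dim level in both groups.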

Other observations

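Factors that govern the transcription and decay of cytokine RNA were read from a list of 29 genes, of which 27 were measured and 25 had signal above the dim level in at least 1 group. In limma 0 were called over all genes, and the median difference was -0.04. An unadjusted p under 0.05 in limma was reached by 9, 3 higher and 6 lower, and by 17.4% of all genes. The lowest p-value in the list was that of Cebpb, a transcription factor of inflammatory cytokine genes (-1.01 ± 0.20). Next came Zfp36l1, which speeds the decay of AU-rich RNA (-1.42 ± 0.36), Nfatc2 (-0.70 ± 0.19) and Jun (-0.78 ± 0.25). All of these were lower on every induced array. Of the 27 measured factors, 6 were lower and 5 higher on every induced array, against 13.4% and 10.7% of all genes. Without uninduced replicate 1 there were 5 calls in limma, Hnrnpd higher and Cebpb, Zfp36l1, Nfatc2 and Stat6 lower. In that fit 1453 of all 18193 genes were called, 586 higher and 867 lower.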
